A study of Mus musculus with 8 samples.

Results

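Transcripts of 10 genes of DNA replication were followed in mouse gallbladder after leptin treatment: Mcm2, Mcm3, Mcm4, Mcm5, Mcm6 and Mcm7, Mcm10, Pcna, Rrm1 and Rrm2. They were chosen from measured values of these same arrays, so their leptin to saline differences are given as a description and carry no test. Every probe set annotated with a single mouse symbol on this list was taken. This gave 29 probe sets for the 10 genes, among 18193 genes with a probe set of their own on the array. Of the 29, 23 were bright enough to be tested and covered all 10 genes, and the other 6 lay below the filter on low signal and are described by their signals.

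Mcm2 to Mcm7 encode the subunits of the ring-shaped helicase that is loaded onto DNA in G1 and unwinds it in S phase. Mcm10 is a separate protein, not part of that ring, that helps start the loaded helicase and accompanies the fork. PCNA is the sliding clamp that holds the replicative polymerases on DNA, and ribonucleotide reductase, made of the large subunit Rrm1 and the small subunit Rrm2, makes the deoxynucleotides that the polymerases consume. Many of these genes are transcribed at the G1 to S transition under E2F factors, and their transcripts are low in tissue whose cells do not divide.

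The animals were female B6.V-lepob obese mice, which carry the ob mutation and make no functional leptin, in both treatments. On arrival they were 7 weeks old, and an acclimation of 1 week followed. Of 24 mice, 12 received recombinant mouse leptin at 5 µg per g body weight by daily injection into the peritoneum for 4 weeks, and 12 received saline on the same schedule. Gallbladders were taken at 12 weeks of age after a night without food, and RNA of 3 gallbladders was combined for each pool, giving 4 leptin pools (numbered 5 to 8) and 4 saline pools (numbered 1 to 4), each on 1 Affymetrix Mouse Genome 430 2.0 array. Values are linear MAS 5.0 signals, n = 4 pools in each treatment, and fold changes are leptin minus saline on the log2(signal + 8.2) scale. A pool hides the spread between its 3 mice.

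All arrays had the same trimmed mean signal of 250, and the median signal was 94.0 to 107 in leptin pools and 77.8 to 87.3 in saline pools. The actin 3′ to 5′ signal ratio, a measure of RNA integrity, was 1.89 ± 0.207 in leptin pools and 1.60 ± 0.0882 in saline pools (SD, n = 4 each, two-sided exact permutation p = 0.0571 over 70 assignments). A probe set counted as called when its adjusted p in limma over all 22519 tested probe sets was under 0.05, and 763 were called lower and 798 higher with leptin. A signal under 46.0, the 95th percentile of 27 bacterial control probe sets over all arrays, was taken as not above background.

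Promoters of the members are shown as a description, and whether these sequences relate to the signals was not tested. RefSeq's table for GRCm38.p6 held 10 promoters for 9 of the 10 genes, each of 300 bases, 250 before and 50 after the annotated transcription start. Printed are the 4 that hold an E2F word and, for comparison, those of Rrm2, with its low leptin signals, and Mcm10, with its high ones. The sequence of Mcm3 lies at chr1:20820263-20820562 on the minus strand, that of Mcm5 at chr8:75109259-75109558 on the plus strand and that of Mcm6 at chr1:128359656-128359955 on the minus strand. That of Mcm7 lies at chr5:138171834-138172133 on the minus strand, upstream of a second annotated Mcm7 start, that of Rrm2 at chr12:24708004-24708303 on the plus strand and that of Mcm10 at chr2:5012742-5013041 on the minus strand. Each runs 5′ to 3′ along its gene, and capitals mark the E2F words and CCAAT, read on either strand.
Mcm3: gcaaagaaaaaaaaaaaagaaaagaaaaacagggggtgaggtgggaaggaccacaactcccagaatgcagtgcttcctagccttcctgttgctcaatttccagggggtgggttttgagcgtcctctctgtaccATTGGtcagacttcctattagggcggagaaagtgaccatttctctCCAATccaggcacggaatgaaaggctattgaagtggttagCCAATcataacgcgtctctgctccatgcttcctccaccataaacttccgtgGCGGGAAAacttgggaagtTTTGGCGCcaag
Mcm5: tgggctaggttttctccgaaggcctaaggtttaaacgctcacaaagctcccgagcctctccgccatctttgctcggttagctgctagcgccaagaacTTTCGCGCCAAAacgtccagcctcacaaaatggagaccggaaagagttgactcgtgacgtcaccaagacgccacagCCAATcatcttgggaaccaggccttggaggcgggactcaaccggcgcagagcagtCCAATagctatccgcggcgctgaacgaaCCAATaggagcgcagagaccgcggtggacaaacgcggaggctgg
Mcm6: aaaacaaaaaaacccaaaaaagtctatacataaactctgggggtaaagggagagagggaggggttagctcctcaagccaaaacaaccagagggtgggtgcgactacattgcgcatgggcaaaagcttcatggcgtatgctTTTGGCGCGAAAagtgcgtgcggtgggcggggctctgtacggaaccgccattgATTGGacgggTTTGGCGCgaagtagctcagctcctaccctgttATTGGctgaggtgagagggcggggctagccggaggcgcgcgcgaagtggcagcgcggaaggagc
Mcm7: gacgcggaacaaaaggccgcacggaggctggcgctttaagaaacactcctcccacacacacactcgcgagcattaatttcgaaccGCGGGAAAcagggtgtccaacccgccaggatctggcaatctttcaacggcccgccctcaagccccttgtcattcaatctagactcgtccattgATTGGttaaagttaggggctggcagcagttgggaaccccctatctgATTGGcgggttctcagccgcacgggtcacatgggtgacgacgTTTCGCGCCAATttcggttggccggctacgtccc
Rrm2: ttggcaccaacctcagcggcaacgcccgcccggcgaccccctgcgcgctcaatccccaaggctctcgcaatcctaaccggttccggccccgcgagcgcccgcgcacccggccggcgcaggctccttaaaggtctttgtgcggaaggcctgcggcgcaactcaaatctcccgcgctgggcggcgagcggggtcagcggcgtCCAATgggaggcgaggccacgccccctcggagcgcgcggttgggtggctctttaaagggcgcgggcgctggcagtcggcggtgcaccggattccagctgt
Mcm10: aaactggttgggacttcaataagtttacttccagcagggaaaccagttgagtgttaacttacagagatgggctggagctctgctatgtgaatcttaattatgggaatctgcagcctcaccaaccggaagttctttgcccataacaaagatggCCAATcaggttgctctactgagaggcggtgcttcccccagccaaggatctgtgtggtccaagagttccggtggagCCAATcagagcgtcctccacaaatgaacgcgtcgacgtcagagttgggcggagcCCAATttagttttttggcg
The E2F words searched were TTTCCCGC, TTTCGCGC, TTTGCCGC and TTTGGCGC. At least 1 of them stood in 4 of the 10 member promoters, against 2.26% of 32851 promoters of the same length. Mcm6 held 3, of which those at -110 to -103 and -106 to -99 from the start overlap and the remaining one lies at -47 to -40. Mcm5 held an overlapping pair at -153 to -146 and -149 to -142. Mcm3 had 1 word at 20 to 27 and 1 at 39 to 46, both after the start, and Mcm7 had 1 at -165 to -158 and 1 at 17 to 24. CCAAT, the core of the site bound by the factor NF-Y, stood in 10 of the 10 member promoters, against 37.4% of all promoters. In Mcm7 it shares a base with an E2F word, at 24 to 28. CACGTG, the E-box read by Myc among others, stood in 0 of 10, against 7.15% of all promoters. These are matches of letters, not bound sites.

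**Figure D1:**
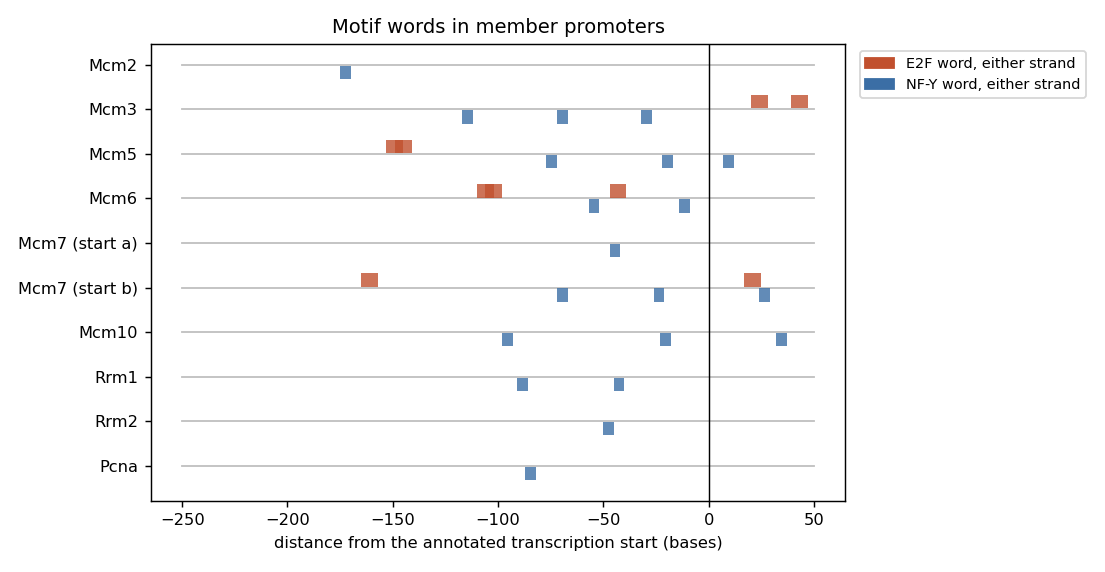
Position of E2F words (upper boxes) and CCAAT, the NF-Y word (lower boxes), in the 10 RefSeq promoters of 9 member genes, in bases from the annotated transcription start. The NF-Y word is present in 10 of 10 promoters and an E2F word in 4 of 10, and the Mcm7 sequence printed in the text is start b.

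In leptin pools, transcripts of the 6 helicase ring subunits and of Rrm2 were lower than in saline pools. Pcna was lower by less, and Mcm10 was higher. For Rrm1 the treatments overlapped and neither tested probe set was called (-0.34 ± 0.20, SE, by the brighter). Of the 23 tested probe sets, 14 were called lower, from 7 genes (Mcm2 to Mcm7 and Rrm2), beside 3.39% of all tested probe sets. One, for Mcm10, was called higher, beside 3.54% of all, and 8 were not called. By the brightest probe set of each gene, 7 of the 10 genes were called lower, beside 3.98% of all 11719 tested genes, and 1 higher, beside 4.29%. The 4 leptin pools lay below all 4 saline pools in 18 of the 23 probe sets, beside 7.40% of all, and above them in 1, beside 8.12%. The genes were chosen for this pattern, so nothing is read from these counts. The median log2 fold change of the 23 was -1.13, beside 0.039 over all tested probe sets.

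The number of calls moved with several settings. Lower calls over all 22519 tested probe sets, 763 in the main fit, moved as well. Without leptin pool 5, 9 of the member probe sets were called lower, beside 507 over all. At a threshold of 0.01, 8 were, and calls in both directions over all probe sets went from 1561 to 507. With the filter at the 75th percentile only 13 member probe sets were tested. Of these 9 were called lower, beside 817 over all that passed this filter. With the actin ratio as a covariate 6 were called lower, beside 405 over all, and the member median was -0.79. Without saline pool 4, 12 were, all among the 14 and from the same 7 genes, beside 1.84% of all, and the median was -0.81. Closest to the threshold on the called side were Mcm10 probe set 1433408_a_at (0.75 ± 0.19, SE) and Mcm7 probe set 1438320_s_at (-0.90 ± 0.24), and closest on the other side were Mcm7 probe set 1439269_x_at (-0.78 ± 0.22) and Pcna probe set 1417947_at (-0.64 ± 0.19).

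**Figure D2:**
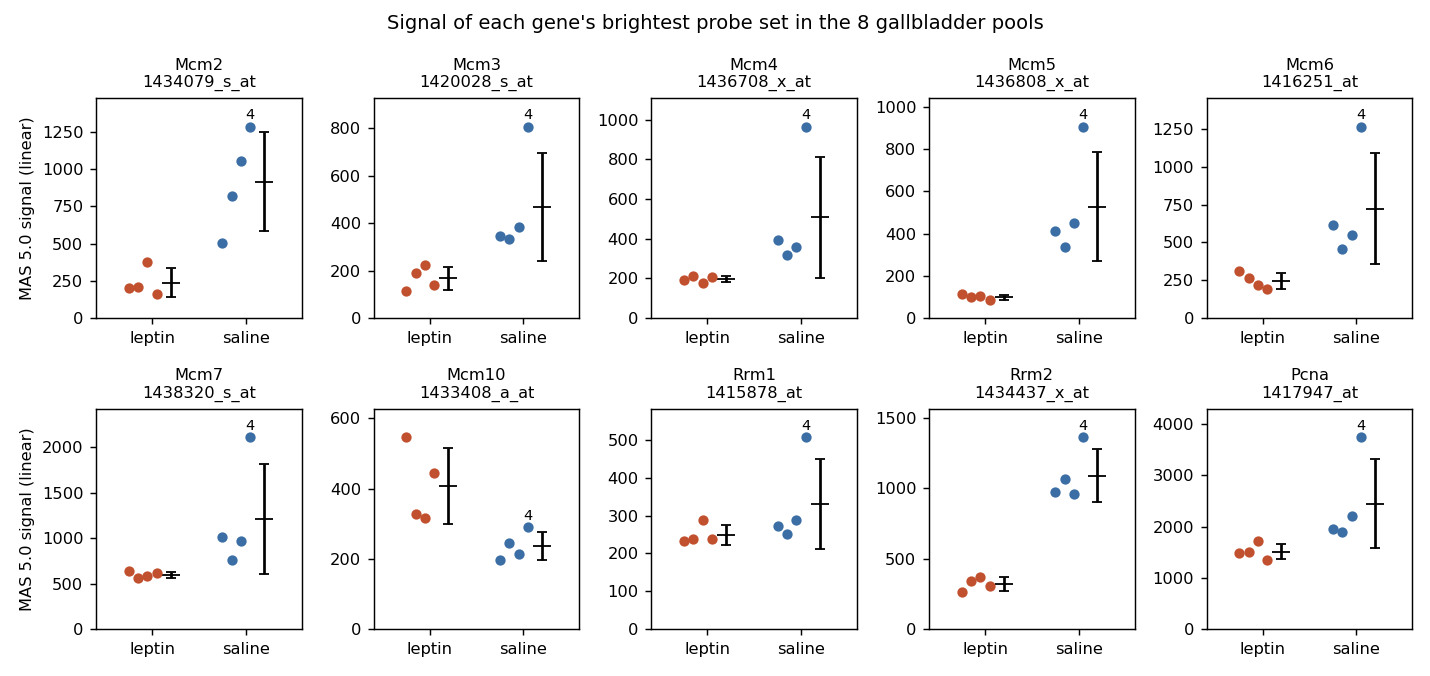
Linear MAS 5.0 signal of the brightest tested probe set of each gene in the 4 leptin pools and the 4 saline pools, with the mean and SD beside each group and saline pool 4 marked. For Mcm2 to Mcm7, Rrm2 and Pcna all leptin pools lie below all saline pools, for Mcm10 they lie above, and for Rrm1 the groups overlap.

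Mcm2 and Mcm6, neighbours in the ring, were both lower in leptin pools. Mcm2 probe set 1434079_s_at gave 204, 209, 378 and 163 in leptin pools 5 to 8, against 505, 821, 1052 and 1282 in saline pools 1 to 4. The highest leptin pool stayed under the lowest saline pool, and the difference was -1.89 ± 0.28 (SE). The saline pools spread widely here, with the lowest, saline 1, nearest to the leptin pools. The other Mcm2 probe set, 1448777_at, gave 162, 130, 89.5 and 185 in leptin pools, against 413, 273, 382 and 660 in saline pools, a difference of -1.53 ± 0.26. Its groups did not overlap either, and leptin 7, the highest leptin pool in 1434079_s_at, was the lowest here.

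Mcm6 probe set 1416251_at gave 314, 262, 219 and 194 in leptin pools, against 614, 458, 552 and 1264 in saline pools, a difference of -1.42 ± 0.26. Saline 4 stood far above the other saline pools, and all leptin pools lay below the lowest of those others. The second Mcm6 probe set, 1438852_x_at, averaged 226 ± 28.4 in leptin pools and 552 ± 303 in saline pools (SD), a difference of -1.13 ± 0.28 that was called in 12 of 19 other fits. The remaining one, 1447756_x_at, lay below the filter, under background in 3 leptin pools and in all 4 saline pools.

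Mcm5, the subunit that forms the gate of the ring with Mcm2, showed the most negative difference among the brightest probe sets of the 10 genes. Its probe set 1436808_x_at gave 113, 98.3, 104 and 85.1 in leptin pools, against 414, 338, 452 and 907 in saline pools, a difference of -2.21 ± 0.25. The leptin pools lay close together and far below every saline pool, and without saline 4 the difference was -1.92 ± 0.19. The weaker probe set 1415945_at averaged 80.1 ± 34.5 in leptin pools and 239 ± 131 in saline pools (SD), a difference of -1.43 ± 0.33. Counted among the 14 called lower, it passed the filter on low signal only through its saline pools. It was no longer called without saline 4 (-1.11 ± 0.30), and leptin 7, at 132, came nearest to the lowest saline pool, at 156. The third, 1459658_at, lay below the filter and averaged 62.7 ± 33.5 in leptin pools and 64.2 ± 24.9 in saline pools, with overlapping groups.

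Mcm3, another ring subunit, had 5 probe sets that did not behave alike. Probe set 1420028_s_at gave 117, 191, 226 and 140 in leptin pools, against 347, 333, 383 and 807 in saline pools, a difference of -1.37 ± 0.28. Groups were separate, with saline 4 again far above the other saline pools. Probe set 1449705_x_at gave 33.9, 31.7, 32.1 and 27.8 in leptin pools, against 162, 156, 203 and 344 in saline pools. All 4 leptin pools were under background, so only a bound can be given, at least 3.94-fold lower with leptin and at least 3.33-fold lower without saline 4. This probe set, counted among the 14 called lower, passed the filter on low signal only through its saline pools. Under quantile scaling and with a pseudocount of 1 it was not tested. Probe set 1426652_at was lower in each leptin pool but not called (-0.99 ± 0.30), and it too passed the filter only through its saline pools. Probe set 1420029_at overlapped between treatments (-0.38 ± 0.22). The fifth, 1426653_at, lay below the filter, with leptin pools at 4.4 to 73.3 and saline pools at 62.3 to 264. Endings such as _x_at and _s_at mark probe sets whose probes can match more than 1 transcript.

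Mcm4 and Mcm7 belong, with Mcm6, to the core of the helicase that carries unwinding activity by itself in the test tube. Mcm4 probe set 1436708_x_at gave 191, 211, 176 and 209 in leptin pools, against 394, 317, 359 and 964 in saline pools, a difference of -1.19 ± 0.28. No leptin pool reached the lowest saline pool, and saline 4 was 2.71 times the mean of saline 1 to 3, the highest such ratio among the tested member probe sets. The other Mcm4 probe set, 1416214_at, averaged 218 ± 42.6 in leptin pools and 427 ± 153 in saline pools (SD), a difference of -0.91 ± 0.22. It was not called without saline 4, where the difference was -0.69 ± 0.18.

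Mcm7 had the smallest difference of the 6 ring subunits by their brightest probe sets. Its probe set 1438320_s_at gave 638, 560, 586 and 611 in leptin pools, against 1009, 762, 973 and 2110 in saline pools, a difference of -0.90 ± 0.24. The leptin pools were tight and below all saline pools, yet the call held in only 6 of 19 other fits and the difference was -0.60 ± 0.14 without saline 4. The other 3 probe sets, 1439269_x_at (-0.78 ± 0.22), 1416030_a_at (-0.64 ± 0.20) and 1416031_s_at (-0.34 ± 0.17), were not called, and the last overlapped between treatments.

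Mcm10 went the other way. Probe set 1433408_a_at gave 546, 327, 316 and 444 in leptin pools, against 198, 245, 213 and 290 in saline pools, a difference of 0.75 ± 0.19. Every leptin pool lay above every saline pool, leptin 7 by the smallest margin, and without saline 4 the difference was 0.85 ± 0.20. The call held in 8 of 19 other fits, whose differences ran from 0.34 with the actin covariate to 0.86 and were positive throughout. A second probe set, 1433407_at, lay below the filter and was also higher in each leptin pool, at 111, 120, 84.3 and 84.5 in leptin pools, against 61.3, 76.9, 50.4 and 48.1 in saline pools. The third, 1454244_at, was dim, under background in 2 leptin pools and 3 saline pools.

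The clamp gene Pcna was bright in all pools. Its probe set 1417947_at gave 1482, 1507, 1716 and 1341 in leptin pools, against 1956, 1892, 2198 and 3741 in saline pools, a difference of -0.64 ± 0.19. No leptin pool overlapped the saline pools, but the probe set was not called, and without saline 4 the difference was -0.42 ± 0.12.

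The subunits of ribonucleotide reductase parted. Rrm2, the small subunit, whose transcript is the one that varies most through the cell cycle, gave 260, 340, 371 and 309 in leptin pools, against 973, 1068, 959 and 1362 in saline pools, by probe set 1434437_x_at. This difference of -1.74 ± 0.15 had the smallest error among the tested member probe sets and was -1.63 ± 0.15 without saline 4. The leptin pools lay far below every saline pool, and saline 4 was 1.36 times the mean of saline 1 to 3. Probe set 1448226_at averaged 168 ± 23.5 in leptin pools and 416 ± 78.2 in saline pools (SD), a difference of -1.26 ± 0.17. Probe set 1416120_at gave 157, 122, 32.1 and 99.4 in leptin pools, against 337, 334, 330 and 405 in saline pools, a difference of -1.87 ± 0.34 with leptin 7 under background.

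Rrm1, the large subunit, gave 232, 238, 290 and 238 in leptin pools, against 272, 253, 289 and 508 in saline pools, by probe set 1415878_at. Its groups overlapped, through leptin 7, and the difference of -0.34 ± 0.20 was -0.12 ± 0.16 without saline 4. Probe set 1448127_at overlapped too (-0.25 ± 0.19, and -0.088 ± 0.18 without saline 4), and 1440073_at lay below the filter, under background in 3 leptin pools and all 4 saline pools. Neither tested Rrm1 probe set was called in any fit that tested it. Rrm2b, the stress-induced small subunit that can stand in for Rrm2, differed by 0.21 ± 0.15 (limma adjusted p = 0.427).

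**Figure D3:**
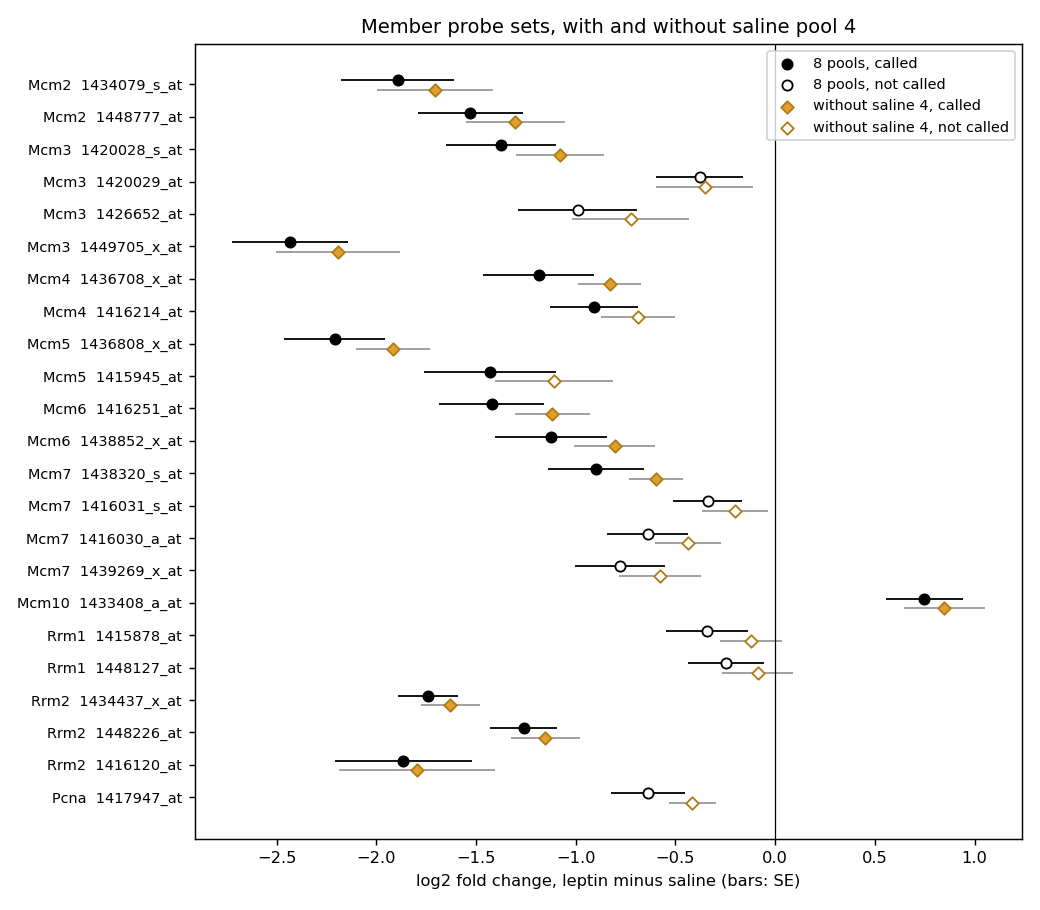
Log2 fold change, leptin minus saline, with its standard error for the 23 tested member probe sets, over all 8 pools (circles) and without saline pool 4 (diamonds), filled where the probe set was called. All but Mcm10 lie left of 0, Rrm2 shifts little without saline 4, and 1 probe set each of Mcm4 and Mcm5 loses its call (the fitted value of Mcm3 probe set 1449705_x_at, under background in all 4 leptin pools, is no measured size).

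Saline pool 4 had more of most of these transcripts than the other saline pools. It was the highest saline pool in 22 of the 23 tested member probe sets (95.7%), beside 25.1% of all tested probe sets. It exceeded the mean of saline 1 to 3 by over 1.5 times in 17 of the 23 (73.9%), beside 3.39% of all. On the log2 scale its excess had a median of 0.89 over the member probe sets, from 0.099 for Mcm3 probe set 1420029_at to 1.42 for Mcm4 probe set 1436708_x_at, beside -0.0042 over all. The members were chosen from values of these same pools, saline 4 among them, so nothing is read from these shares and medians. The excess was 0.27 to 0.44 in the 3 probe sets of Rrm2 and 0.40 in Mcm10 probe set 1433408_a_at. Among the other 7 pools, all 23 tested member probe sets kept the sign of their difference, and the differences of the 22 lower ones were smaller in size.

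**Figure D4:**
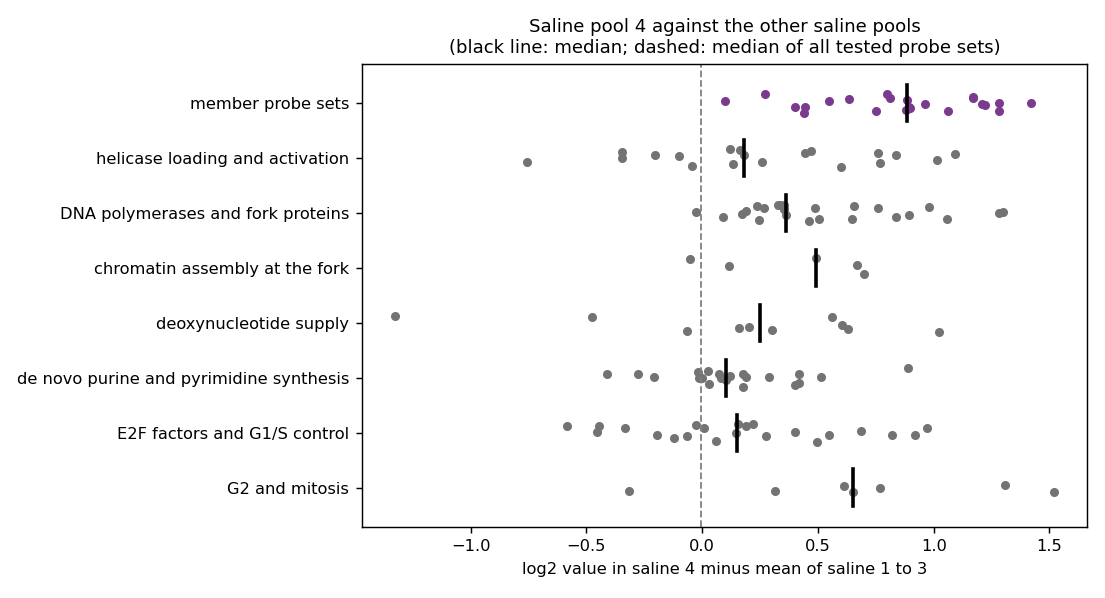
Log2 value in saline pool 4 minus the mean of saline pools 1 to 3, for the 23 tested member probe sets and for the tested genes of 7 related lists, 1 point each, with the median of each row as a black bar and that of all tested probe sets as a dashed line. The member median is 0.89, the G2 and mitosis median 0.65, and the de novo nucleotide synthesis median 0.10. The members were chosen from values of these same pools, so nothing is read from their median.

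Across the 8 pools the members other than Mcm10 varied together. By brightest probe sets, the 36 pairs without Mcm10 had a median Pearson r of 0.91 (0.64 to 0.98), and 0.79 for deviations from the treatment means. The 9 pairs with Mcm10 had a median of -0.56 (-0.82 to -0.30), and 0.25 for the deviations. These correlations are over 8 pools that share the treatment difference and, in the deviations, the high saline 4, so they are a description only. The genes outside the list whose profile was most like the mean profile of the 10 members over 8 pools were Nhp2 (r = 0.994), Pitpna (0.993), Cct2 (0.983), Mtm1 (0.979) and Psmb2 (0.977). Nhp2, a ribonucleoprotein of small nucleolar RNAs and telomerase, gave 631, 647, 682 and 636 in leptin pools, against 944, 961, 1023 and 1620 in saline pools. It too had tight leptin pools and a high saline 4. By deviations from the treatment means, the closest were Nhp2 (0.994), Dnajc9 (0.982), Nelfe (0.981), Pitpna (0.976) and Cse1l (0.976), and Dnajc9, a co-chaperone of histones, was at 568 in saline 4 and at 317 to 342 in the other saline pools.

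Genes that work beside the members were read from 7 lists of 152 symbols in all, of which 148 were on the array under their own symbol and 109 were tested, each by its brightest probe set. Of the 109, 13 were lower and 2 higher in leptin pools by limma, beside 3.98% and 4.29% of all tested genes. The count of lower ones was 8 without saline 4, 7 without leptin 6, 8 without leptin 8 and 4 with the actin covariate. Over all tested probe sets, lower calls went from 763 to 415, 399, 471 and 405 in those fits. Among 19 tested genes that load and start the helicase, 3 fell and 0 rose, with a list median of -0.18 beside 0.020 over all genes. At an unadjusted limma p under 0.05, 7 were lower and 1 higher. The share of all genes at that cut is not given here, so nothing is read from unadjusted counts here or below. Cdt1, which brings the ring to origins, fell to 467 ± 31.9 in leptin pools, against 967 ± 434 in saline pools (SD, n = 4 each), a difference of -0.95 ± 0.22 (SE, limma adjusted p = 0.0231, lower in 4 of 4 leptin pools). The Cdt1 call was lost without leptin 5 (adjusted p = 0.0581), leptin 6 (0.0524) or leptin 8 (0.0507). Tipin of the fork protection complex differed by -0.78 ± 0.18 (limma adjusted p = 0.0232, and 0.0671 without leptin 6) and Orc2 of the origin recognition complex by -0.82 ± 0.21 (limma adjusted p = 0.0338). The Orc2 call was lost without any 1 of leptin 6, leptin 8, saline 1, saline 2 and saline 4, at adjusted p of 0.0805 to 0.0933. Mcm9, a helicase of meiosis and repair related to the ring, differed by -0.63 ± 0.29 (adjusted p = 0.209), and Cdc45, a partner of the active helicase, by 0.31 ± 0.24 (adjusted p = 0.464). Cdc6, the partner of Cdt1, and Mcm8, the partner of Mcm9, lay below the filter.

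At the fork, few genes passed the test. In simulated data with 200 probe sets lowered, that test recovered 2% of 1.5-fold and 43.5% of 2-fold changes. Of 25 tested polymerase and fork genes, only the single-strand binding subunit Rpa1 was called (-0.40 ± 0.10, limma adjusted p = 0.0347), and the median was -0.17. The Rpa1 call was lost without any 1 of leptin 5, 6 and 8 and saline 2, 3 and 4, at adjusted p of 0.0575 to 0.105. Among 5 tested chromatin assembly genes the median was -0.81 and 2 fell. The histone chaperone Asf1a fell to 404 ± 28.4 in leptin pools, against 716 ± 39.8 in saline pools (SD), a difference of -0.81 ± 0.12 (limma adjusted p = 0.0013), with saline 4 inside the range of the other saline pools. The histone chaperone Nasp fell by 0.91 ± 0.20 on the log2 scale (limma adjusted p = 0.0175, and 0.0513 without saline 4).

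Other genes of nucleotide supply mostly did not pass the test. Of 10 tested deoxynucleotide genes, 1 fell, the thymidylate kinase Dtymk (-0.73 ± 0.18, limma adjusted p = 0.0307), and the median was -0.036. The Dtymk call was lost without any 1 of leptin 5, 6 and 8 and saline 1 and 4, at adjusted p of 0.0549 to 0.0853. Thymidylate synthase (Tyms) and thymidine kinase (Tk1) lay below the filter. Of 21 tested genes of de novo purine and pyrimidine synthesis, 1 fell, the UMP and CMP kinase Cmpk1 (-0.56 ± 0.095, limma adjusted p = 0.0040), and the median was -0.076.

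Among 22 tested genes of E2F factors and G1 to S control, 5 fell and 2 rose, with a median of -0.18. Myc, a transcription factor that drives growth and cell cycle entry, gave 195, 159, 112 and 159 in leptin pools, against 613, 581, 684 and 713 in saline pools, a difference of -2.02 ± 0.17 (limma adjusted p = 1.6e-05). Saline 4 did not stand apart for Myc. Ccnd1, or cyclin D1, which activates the kinase partners Cdk4 and Cdk6, fell by 0.71 ± 0.12 on the log2 scale (adjusted p = 0.0037), Cdk6 by 0.72 ± 0.15 (adjusted p = 0.0148) and Tfdp1, the DNA-binding partner of E2F proteins, by 0.75 ± 0.18 (adjusted p = 0.0226, and 0.0537 to 0.0698 without leptin 6, leptin 8 or saline 4). The 2 cell cycle inhibitors of the list that were called went opposite ways. Cdkn1a, or p21, gave 427, 415, 591 and 858 in leptin pools, against 1834, 1361, 1411 and 1012 in saline pools, a difference of -1.31 ± 0.23 (limma adjusted p = 0.0046), and saline 4 was the lowest saline pool. Cdkn1b, or p27, gave 608, 847, 1059 and 788 in leptin pools, against 408, 439, 546 and 364 in saline pools, a difference of 0.89 ± 0.17 (limma adjusted p = 0.00995). Rbl2, or p130, the pocket protein of resting cells, was the other that rose (0.68 ± 0.17, adjusted p = 0.0337). The Rbl2 call was lost without any 1 of leptin 5, 6 and 8 and saline 2, 3 and 4, at adjusted p of 0.0721 to 0.0967. E2f1 (-0.031 ± 0.42, adjusted p = 0.975, leptin 5 under background) and Ccne1, or cyclin E1 (-0.31 ± 0.27, adjusted p = 0.525), were not called. With the actin covariate, Asf1a, Cmpk1, Myc and Cdkn1b were still called, and Cdt1, Tipin, Orc2, Rpa1, Nasp, Dtymk, Ccnd1, Cdk6, Cdkn1a, Tfdp1 and Rbl2 were not.

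**Figure D5:**
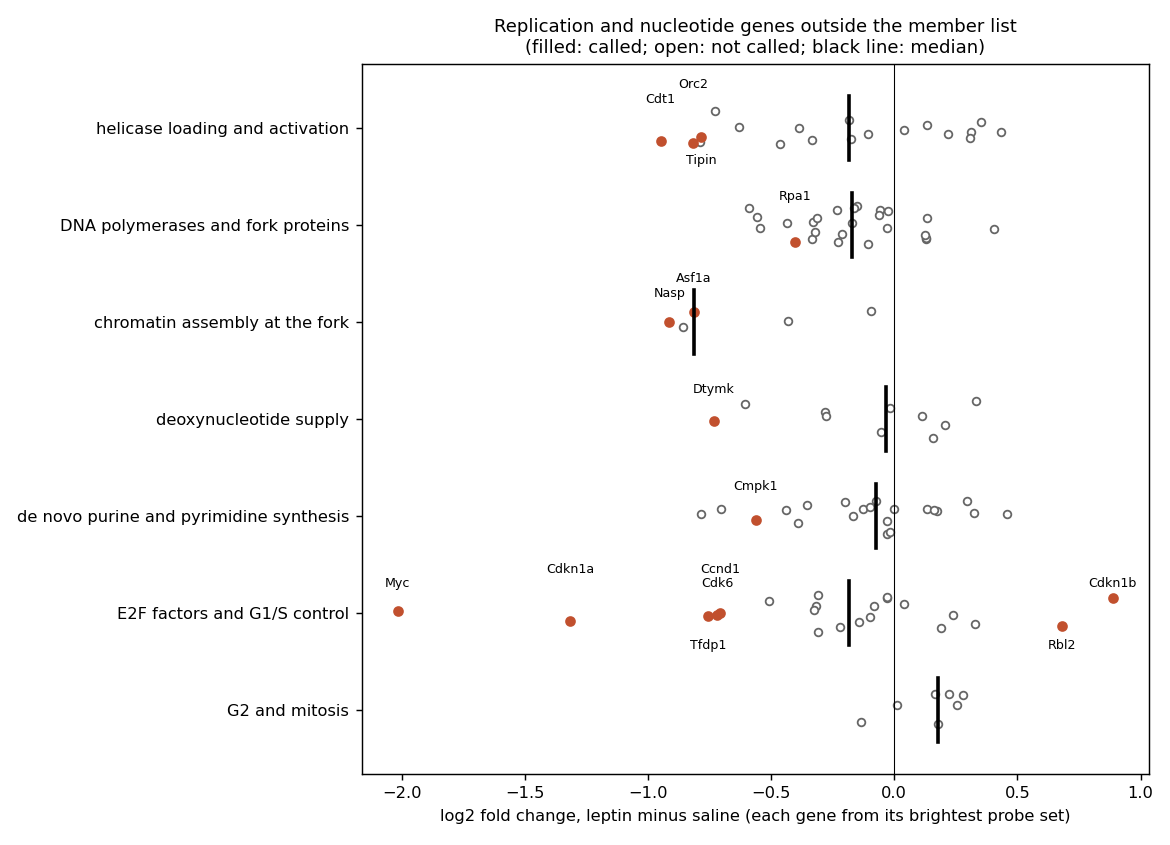
Log2 fold change, leptin minus saline, of the 109 tested genes of 7 lists outside the member list, 1 point per gene from its brightest probe set, with called genes filled and named and list medians as black bars. Calls are scattered over 6 lists, with Myc at -2.02 the most negative and Cdkn1b at 0.89 the most positive, and the G2 and mitosis list has none.

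Genes of G2 and mitosis were mostly too dim to test, with 7 of 24 on the array above the filter. By limma 0 of the 7 were called, 0 had an unadjusted p under 0.05, and the median log2 fold change was 0.18. Cdk1, the kinase of mitotic entry, differed by 0.012 ± 0.27 (limma adjusted p = 0.984) and Top2a, the topoisomerase that decatenates sister chromosomes, by -0.14 ± 0.27 (limma adjusted p = 0.800). Mki67, the usual marker of dividing cells, lay below the filter at 62.5 ± 19.0 in leptin pools and 66.2 ± 34.3 in saline pools (SD). Saline 4 was the highest saline pool in 6 of the 7, with a median log2 excess of 0.65.

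In whole gallbladder RNA, fewer cells of a type and less RNA per cell cannot be told apart. Gallbladder epithelial markers, 10 of 10 tested, summed to 35497 to 39693 in leptin pools and 40683 to 50725 in saline pools, with 3 called lower and 1 higher, and saline 4 had the highest sum. Macrophage markers, 10 of 10 called higher, summed to 10645 to 13290 in leptin pools and 4684 to 6057 in saline pools. B and plasma cell markers (4 of 5 tested called higher) summed to 16332 to 23850 in leptin pools and 3905 to 4244 in saline pools. Neutrophil markers (3 of 4 tested called higher, Camp under background in every pool) summed to 3543 to 6135 in leptin pools and 655 to 1145 in saline pools, where saline 4 was the highest. T and NK cell markers (0 of 2 tested called by limma, 2 higher at an unadjusted p under 0.05) summed to 541 to 816 in leptin pools and 348 to 516 in saline pools. The sums of hepatocyte, adipocyte, smooth muscle, pancreatic acinar, endothelial and fibroblast markers overlapped between treatments. For adipocyte markers the overlap came from saline 4 alone, the lowest saline pool at 4389. Their leptin sums of 4197 to 6452 lay below those of saline 1, 2 and 3, at 13166, 8355 and 10397. Hepatocyte sums ran from 122399.5 to 151534.8 in leptin pools and from 99352.36 to 157222.5 in saline pools. By limma, 1 of 6 adipocyte and 1 of 8 smooth muscle markers were called lower (3 and 3 at an unadjusted p under 0.05), and 1 of 11 hepatocyte and 1 of 8 fibroblast markers higher (1 and 5 unadjusted). For endothelial and acinar markers, 0 of 8 and 0 of 2 were called (1 higher and 0 unadjusted). The unadjusted counts have no share of all genes beside them, so nothing is read from them. Hepatocyte and adipocyte markers were present in every pool. The part of these differences in cell makeup and of the actin ratio in the member values was not tested.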

How the data were processed

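Pooled gallbladder RNA from 4 leptin and 4 saline pools was hybridised to 1-colour arrays. The authors deposited 1 linear intensity per probe set and array, made with MAS5 per the submitters' processing notes. The software version, scan dates and detection calls are not given in these sources, so no batch was tested, and the number of arrays limits the precision. From these, 45101 probe sets less 64 controls were scaled to the shared 2% trimmed mean and taken to log2(signal + 8.2), 8.2 being the 10th percentile of all values, which understates changes of dim genes. The brighter 22519 by mean log2 value were tested with limma 3.58.1 in R 4.3.3 (lmFit, eBayes with trend, two-sided p adjusted over these by Benjamini-Hochberg, threshold 0.05). Probe sets were named from the platform annotation (34958 with 1 symbol, 932 with several, 9211 with none), of which 34754 matched the mouse gene table by Entrez identifier. Sequences are RefSeq's, GRCm38.p6. The fit was tested on simulated data in which 200 of 22519 probe sets were lowered. At the threshold of 0.05 it recovered 2% of 1.5-fold, 43.5% of 2-fold and 95% of 4-fold changes. A gene that was not called is therefore not shown to be unchanged. The members, lists and tests were chosen with earlier results of these data known. Named were all member probe sets, up to 6 called genes per list by size of change, a set of replication and cell cycle genes whatever they did (Cdc6, Cdt1, Cdc45, Mcm8, Mcm9, Tyms, Tk1, Rrm2b, E2f1, Ccne1, Ccnd1, Myc, Mki67, Cdk1 and Top2a), and the 5 genes of highest likeness; Rbl2, Dnajc9, Nelfe and Cse1l were outside that rule and named after their values were seen. Alternatives were other scalings (quantile, loess, median), pseudocounts, filters, variance models, array weights, an actin covariate, another threshold, another choice of probe set and leaving out each pool.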

Additional observations from a re-analysis of the deposited data

Results flagged for a closer look

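Signals of 53 probe sets were looked at in each treatment, 106 groups of 4 pools. In 9 of them 1 pool lay farther from the rest than Dixon's 95% critical value for 4 values allows. Chance alone does so in about 1 of 20 independent groups. These groups share the same pools and were not picked independently of their values, so nothing is read from that rate. In 7 of the 9 flagged groups the far pool was saline pool 4, at the top. Of these, 3 were member probe sets: Mcm3 1420028_s_at at 807, Mcm3 1426652_at at 237 and Rrm2 1416120_at at 405, where the other Rrm2 saline pools lay at 330 to 337. The others were Nhp2 at 1620, Pitpna at 2030, Dnajc9 at 568 and Nelfe at 604. All were named for their likeness to the members, whose mean profile was highest in saline 4. In leptin pool 7, Rrm1 1415878_at was highest at 290, and this overlap with the saline pools rests on that pool. In saline pool 3, Orc2 was lowest at 197.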

How the results depend on the processing

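Over the 19 other fits, the median log2 fold change of the member probe sets kept its sign. It ran from -1.38 under median scaling to -0.79 with the actin covariate, against -1.13 in the main fit. Of 425 member values, 0 changed sign. The actin covariate moved single values both ways, such as Mcm3 1420028_s_at from -1.37 to -0.79 and Rrm2 1416120_at from -1.87 to -2.78. The 14 lower member calls became 6 with the actin covariate, 8 at a threshold of 0.01 and 9 to 15 when 1 pool was left out. They became 9 with the filter at the 75th percentile, where only 13 member probe sets were tested. The 1 higher member call, Mcm10, became 0 under quantile, loess and median scaling, without the filter or the variance trend, with the actin covariate and at 0.01, and 0 to 1 without 1 pool. The 13 lower calls among the 109 tested genes of the 7 lists, 5 of them genes of E2F factors and G1 to S control, became 28 under median scaling. They became 7 without the trend, 4 with the actin covariate, 5 at 0.01 and 7 to 15 without 1 pool. The 2 higher ones became 1 under median scaling, without the filter or the trend, with the covariate and at 0.01, 5 with the probe set of smallest p and 1 to 2 without 1 pool. All calls, 1561, became 3992 under median scaling (3586 lower, 406 higher, against 763 and 798), which moves the median of all probe sets to -0.21, 654 with the covariate, 507 at 0.01 and 878 to 1436 without 1 pool. The cause of these shifts was not tested. Of 562 values of 30 other named genes, 479 kept their side of the threshold, 82 lost the call, 1 gained it (Pitpna under median scaling) and 0 reversed. No paired analysis was possible because saline pools are numbered 1 to 4 and leptin pools 5 to 8, so no number is shared. Signals near background limit the dim probe sets, such as Mcm3 1449705_x_at.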
